A study of Mus musculus with 3 samples.

Results

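Granzymes A, B, C, D, E, F, G, K and M (Gzma, Gzmb, Gzmc, Gzmd, Gzme, Gzmf, Gzmg, Gzmk and Gzmm) and perforin (Prf1) are the 10 genes described here, out of 22350 protein-coding genes in the annotation. They were chosen by name, and every listed Runx3 peak and H3K4me1 region that overlapped the gene body or the 50 kb on either side of it was taken as belonging to the gene's window. Overlapping windows were merged, which gave 4 loci: Prf1 and Gzmm, each alone on chromosome 10, Gzma with Gzmk on chromosome 13, and Gzmb with Gzmc, Gzmf, Gzmg, Gzmd and Gzme on chromosome 14.

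The data are ChIP-seq of natural killer (NK) cells (NKC) from spleen of ICR mice, in which chromatin bound by a protein or carrying a histone mark is pulled down and sequenced. The 3 samples were 1 immunoprecipitation with a home-made polyclonal anti-Runx3 antibody, 1 with a monoclonal antibody to H3K4me1, and 1 with non-immune serum (NIS) as the control. All 3 used the same kind of cells, freshly isolated and resting, fixed in 1% formaldehyde and sheared to fragments of about 300 bp that were read over 40 bases. What was analysed is a list of 15524 Runx3 peaks and a list of 49902 H3K4me1 regions, as positions in the mm9 build without heights or read numbers. Each group is 1 sample, so no value below has a spread between replicates, no test of a difference was possible, and the depth behind a region cannot be read from the lists. The cells were enriched by negative selection and sorted, for NKp46 according to the labels and for DX5 according to the study's methods, and which applies to these samples was not settled. How many mice were pooled, and their age and sex, are not given in the sources used here.

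Granzymes are serine proteases that cytotoxic lymphocytes store in granules and release onto a target cell, and perforin is the pore-forming protein that lets them into its cytosol. Gzma and Gzmk cleave after basic residues and Gzmb after aspartate, while Gzmm prefers methionine and related residues. Gzmc to Gzmg are rodent relatives of Gzmb that lie beside it in a cluster shared with cathepsin G and mast cell proteases. Runx3 is a Runt domain transcription factor of cytotoxic lymphocytes that recognises the letters TGTGGT and close variants, and H3K4me1 is a histone mark typical of enhancers and of the flanks of active promoters.

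The sequences around the start sites are shown first, because 5 members had a Runx3 peak within 1 kb of a start and 5 did not, while the RUNX letters were present upstream of members of both sets. The 250 bases upstream of the annotated start are given for Gzmb, Gzma and Prf1, which had a peak within 1 kb, and for Gzmc, Gzmd, Gzmf and Gzmg, which had none. They are mm9 sequence in the direction of transcription, and capitals mark matches to the RUNX letters on either strand. The letters searched were TGTGGT, the variant TGTGGC, and the same pair with C at the third base, which are TGCGGT and also TGCGGC. On the other strand TGTGGT appears as ACCACA.
Gzmb upstream, chr14:56881098-56881347, minus strand: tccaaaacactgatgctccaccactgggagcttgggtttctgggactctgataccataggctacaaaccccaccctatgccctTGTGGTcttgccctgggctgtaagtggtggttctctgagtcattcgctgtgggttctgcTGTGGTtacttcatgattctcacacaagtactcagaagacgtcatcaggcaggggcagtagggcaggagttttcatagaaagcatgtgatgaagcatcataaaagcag
Gzma upstream, chr13:113891188-113891437, minus strand: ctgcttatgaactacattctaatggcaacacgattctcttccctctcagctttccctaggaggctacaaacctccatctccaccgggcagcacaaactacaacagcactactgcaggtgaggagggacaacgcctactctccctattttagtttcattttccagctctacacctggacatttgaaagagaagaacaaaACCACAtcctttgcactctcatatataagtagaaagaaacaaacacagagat
Prf1 upstream, chr10:60760334-60760583, plus strand: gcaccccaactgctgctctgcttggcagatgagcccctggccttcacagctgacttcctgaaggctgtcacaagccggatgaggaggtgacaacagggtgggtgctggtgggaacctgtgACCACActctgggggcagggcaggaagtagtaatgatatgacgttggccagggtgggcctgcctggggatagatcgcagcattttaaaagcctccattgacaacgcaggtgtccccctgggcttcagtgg
Gzmc upstream, chr14:56853494-56853743, minus strand: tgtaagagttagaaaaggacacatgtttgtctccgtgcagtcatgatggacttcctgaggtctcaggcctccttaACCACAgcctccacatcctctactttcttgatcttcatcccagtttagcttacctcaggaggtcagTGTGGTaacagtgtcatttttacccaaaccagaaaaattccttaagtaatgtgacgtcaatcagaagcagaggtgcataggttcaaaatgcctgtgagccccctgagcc
Gzmd upstream, chr14:56751446-56751695, minus strand: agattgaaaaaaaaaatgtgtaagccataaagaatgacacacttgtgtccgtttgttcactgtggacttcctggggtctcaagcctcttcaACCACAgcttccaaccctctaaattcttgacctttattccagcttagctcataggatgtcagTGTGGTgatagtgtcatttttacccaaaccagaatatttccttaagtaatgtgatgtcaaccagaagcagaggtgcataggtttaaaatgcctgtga
Gzmf upstream, chr14:56830245-56830494, minus strand: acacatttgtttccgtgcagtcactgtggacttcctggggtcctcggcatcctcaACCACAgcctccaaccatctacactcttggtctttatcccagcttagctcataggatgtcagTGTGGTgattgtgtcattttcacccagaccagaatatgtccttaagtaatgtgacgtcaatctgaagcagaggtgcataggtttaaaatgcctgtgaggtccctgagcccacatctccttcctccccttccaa
Gzmg upstream, chr14:56778417-56778666, minus strand: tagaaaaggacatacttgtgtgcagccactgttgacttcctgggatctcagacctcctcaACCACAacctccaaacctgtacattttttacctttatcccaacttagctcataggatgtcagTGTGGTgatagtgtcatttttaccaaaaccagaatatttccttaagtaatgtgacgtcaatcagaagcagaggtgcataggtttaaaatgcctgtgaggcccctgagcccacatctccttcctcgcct

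A RUNX match was found in this window for 9 of the 10 members and for 37.5% of all 22350 promoters of the same length. For Gzmk the window was taken at an inner start, chosen because a peak covered it. For the other members and for all promoters it was taken at the 5′ end of the gene. All 6 chromosome 14 members held 2 matches, against 8.74% of all promoters with more than 1. In Gzmb both matches read TGTGGT on the strand of the gene, with their first bases at -167 and -108 from the start. In Gzmc, Gzmd, Gzme, Gzmf and Gzmg the match farther from the start lay on the opposite strand and the nearer one on the gene's strand, with first bases 62 bases apart in Gzmd, Gzme, Gzmf and Gzmg and 66 apart in Gzmc. The same 5 windows each held 1 match to the ETS letters AGGAAGT as well, on the opposite strand and farther from the start than both RUNX matches. An ETS match was found in 12.5% of all promoters.

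These 5 genes are not independent examples. Their upstream windows were between 84.1% and 95.8% identical in pairs, and their coding sequences between 73.5% and 94.2% (median 85.0%). Gzmb stood apart upstream, with 52.6% to 58.9% identity to the other 5. Its coding identity to them, 68.4% to 77.2%, overlapped their own range, and Gzmc was closer in coding sequence to Gzmb (77.2%) than to Gzmd, Gzme, Gzmf or Gzmg (73.5% to 75.7%). Outside chromosome 14, Gzma held 1 RUNX match at -52, Prf1 1 at -130 between 2 ETS matches, and Gzmm 1 at -247. Upstream of the inner Gzmk start that a peak covered, no RUNX match was found in the 250 bases, but a match to the T-box letters GGTGTGA began at -143. A match describes the letters and is not evidence of binding.

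**Figure D1:**
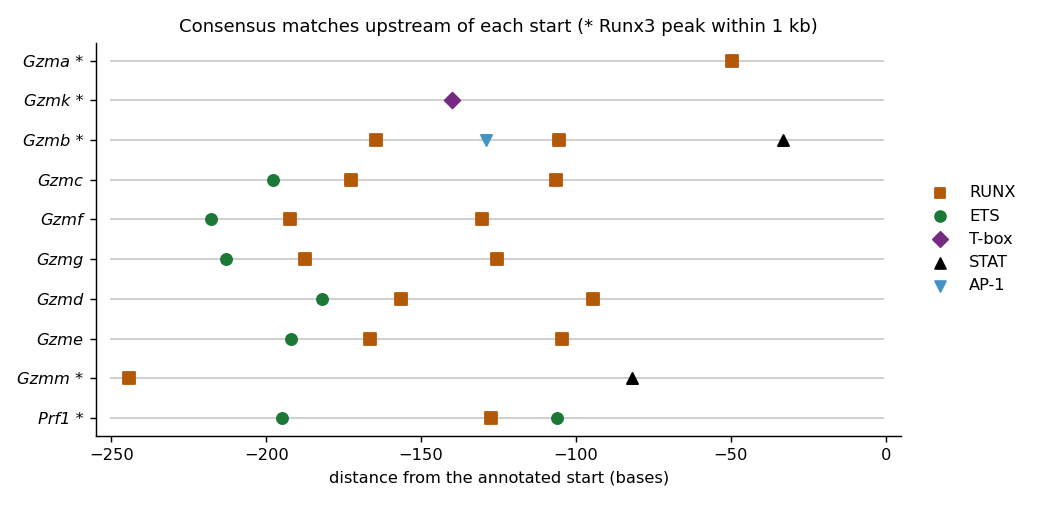
Positions of consensus matches in the 250 bases upstream of each member's start (x axis, bases from the annotated start; each row a gene, each symbol a match, an asterisk a Runx3 peak within 1 kb of a start). Gzmc, Gzmf, Gzmg, Gzmd and Gzme share 1 ETS and 2 RUNX matches in the same order, and none of them carries an asterisk.

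The number of Runx3 peaks differed widely between members. Prf1 had the most with 13, followed by Gzma with 11, Gzmm with 6, Gzmb with 5, Gzmk with 4 and Gzmc with 3. Gzmd and Gzme had 1 each, and Gzmf and Gzmg had 0. This order depends on the 50 kb flank. Within 10 kb Gzmm had 5 peaks, among them those at the starts of Cdc34 and Bsg, and Prf1 and Gzma had 4 each. Within 100 kb Prf1 and Gzma had 13 each. By a basal domain with extension to the neighbouring genes, Gzma and Gzmb had 6 each and Prf1 2. By that rule the Prf1 domain was bounded upstream by Adamts14 and downstream by Rpl27a-ps1. The latter is an entry typed as coding whose symbol marks a pseudogene, so the low Prf1 count rests in part on it. At least 1 peak lay within 50 kb for 8 of the 10 members, compared with 62.6% of all protein-coding genes, so having a peak somewhere in the window did not by itself set the members apart from the annotation. Among the 8856 protein-coding genes with a body of at most 10 kb, a class that holds all members except Gzmk, the median was 1 peak and 48.8% of genes had 0. In that class, 0.203% of genes had as many peaks as Prf1 or more, 0.553% as many as Gzma, 6.74% as many as Gzmm, 10.3% as many as Gzmb and 24.9% as many as Gzmc.

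**Figure D2:**
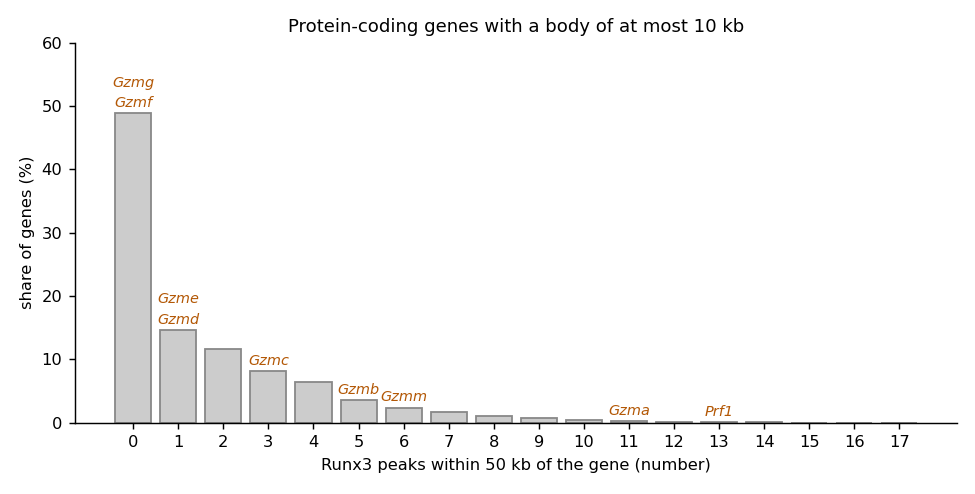
Share of protein-coding genes with a body of at most 10 kb (y axis, %) by the number of Runx3 peaks within 50 kb (x axis), with the 9 members of that size named above their bar. Prf1 (13 peaks) and Gzma (11) lie in the tail, and Gzmf and Gzmg stand with the 48.8% of genes that had 0.

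H3K4me1 followed a similar order. It covered 73.5% of the Prf1 window and 62.2% of the Gzma window, then 37.9% for Gzmb, 24.6% for Gzmm, 23.6% for Gzmc and 21.5% for Gzmk. Coverage was 10.4% for Gzme, 9.34% for Gzmd, 8.03% for Gzmf and 1.54% for Gzmg, where only 1 region reached the window. The median over the genes with short bodies was 5.82%. All 10 members had at least 1 region within 50 kb, against 79.7% of protein-coding genes. H3K4me1 covered the whole body of Gzmb, Gzmm and Prf1 (100% each) and 71.8% of Gzma. It covered 28.0% of Gzmk, 17.0% of Gzmc and 3.86% of Gzmf, and 0% of Gzmd, Gzme and Gzmg.

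**Figure D3:**
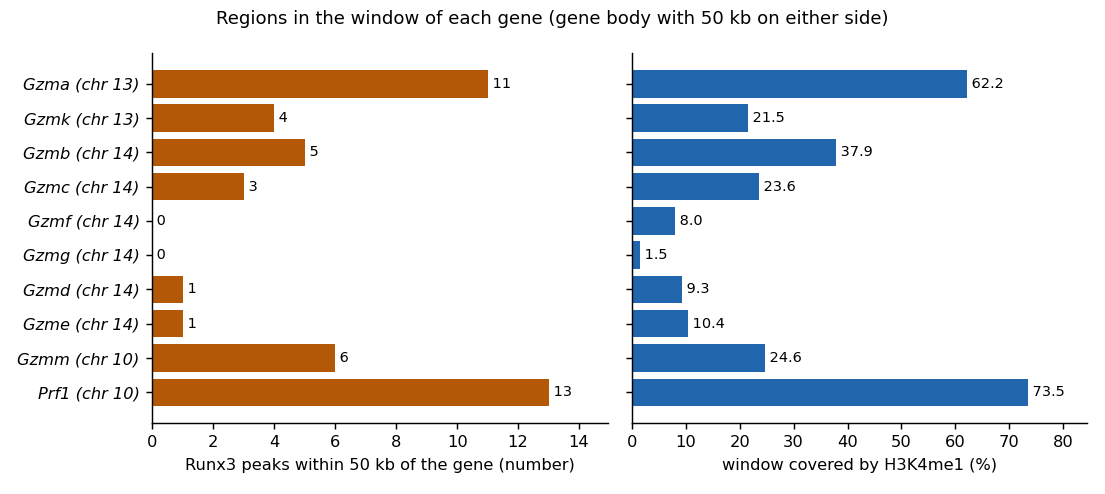
Runx3 peaks (left, number) and share of the window covered by H3K4me1 (right, %) for each member, with 1 bar per gene and the value beside it. Runx3 counts run from 0 (Gzmf and Gzmg) to 13 (Prf1) and H3K4me1 coverage from 1.54% (Gzmg) to 73.5% (Prf1).

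At the start sites the members fell into 2 sets. Gzma, Gzmb, Gzmk, Gzmm and Prf1 had a Runx3 peak within 1 kb of an annotated start, 5 of 10 compared with 28.2% of all protein-coding genes. In 4 of these the peak covered the start itself, and in Gzma its edge lay 0.507 kb upstream. Gzmc, Gzmd, Gzme, Gzmf and Gzmg had no peak within 1 kb, and the nearest edge of a peak was 27.0 kb from the start of Gzmc, 34.9 kb for Gzme, 46.9 kb for Gzmd, 50.3 kb for Gzmf and 73.9 kb for Gzmg. H3K4me1 lay within 1 kb of a start in 6 of the 10, against 59.6% of all protein-coding genes, the sixth being Gzmc, whose start lay inside a region of 1709 bp without a Runx3 peak. The nearest H3K4me1 edge was 5.91 kb from the start of Gzmf, 14.5 kb from Gzme, 26.4 kb from Gzmd and 44.3 kb from Gzmg.

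The merged windows together held 39 Runx3 peaks and 51 H3K4me1 regions. With 50 kb flanks the Prf1 window was the densest, with 12.2 peaks per 100 kb, followed by Gzma-Gzmk with 6.03, Gzmm with 5.65 and the chromosome 14 cluster with 2.45. With 10 kb flanks the order of the chromosome 10 loci turned, with 5 peaks at Gzmm and 4 at Prf1 around bodies of 6242 and 6428 bp. The 5 at Gzmm included the peaks at the starts of the neighbouring genes Cdc34 and Bsg. With 50 kb flanks H3K4me1 covered 73.5% of the Prf1 window, 39.8% of Gzma-Gzmk, 24.6% of Gzmm and 21.0% of the chromosome 14 cluster. H3K4me1 lay under 38 of the 39 peaks (97.4%, exact 95% interval 86.5% to 99.9%, counting error only), which is close to the 95.7% of all listed Runx3 peaks. In the other direction, 23 of the 51 H3K4me1 regions (45.1%) held a Runx3 peak, against 28.6% of the whole list. For 1 of the 23, at Polrmt in the Gzmm window, the peak lay beyond the window and was not among the 39. The regions at these loci were wider than most. Of the 51, 7 (13.7%) spanned 10 kb or more compared with 1.99% of the list, although a wide region is also more likely to reach into a window. A wide region is also more likely to hold a peak, so the 45.1% and 28.6% are not matched for width.

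**Figure D4:**
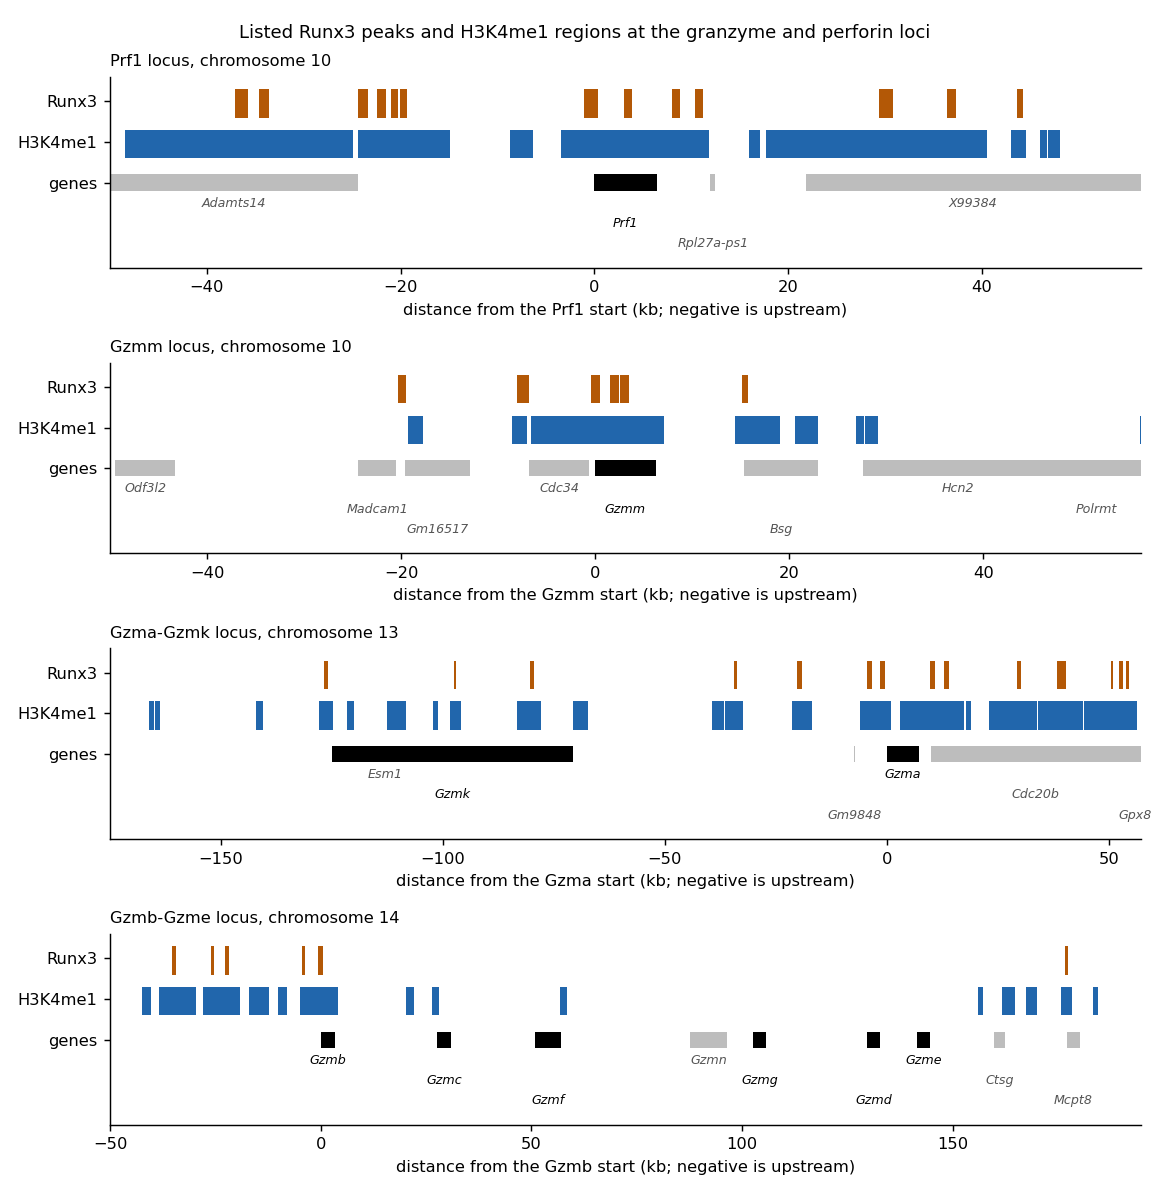
The 4 merged windows, with Runx3 peaks, H3K4me1 regions and protein-coding genes as boxes drawn to scale (x axis, kb from the start of Prf1, Gzmm, Gzma or Gzmb, negative upstream; members in black, other genes in grey, with Esm1 inside the long form of Gzmk). The 13 Prf1 peaks are spread over both flanks, and the chromosome 14 panel has 5 peaks at and upstream of Gzmb and 1 at Mcpt8, with 176 kb between them.

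Perforin had peaks on both sides and inside the gene (chr10:60760584-60767011 is the gene body, on the plus strand). Positions are given as the distance of the peak's midpoint from the Prf1 start. Far upstream, 2 peaks lay in an intron of Adamts14, a gene for an extracellular metalloprotease, at -36.4 and -34.1 kb. A group of 4 intergenic peaks followed between -23.9 and -19.7 kb. This group lay beside the Adamts14 start, with midpoints 515, 2429, 3783 and 4739 bp from that start. The Prf1 start was covered by a peak of 1476 bp with its midpoint at -0.375 kb, and another peak lay in a Prf1 intron at 3.51 kb. Downstream, 2 intergenic peaks lay at 8.42 and 10.8 kb, and 3 peaks in introns of X99384 lay at 30.1, 36.9 and 44.0 kb. All 13 lay on H3K4me1, in 5 of the 9 regions of the window. A region of 15.3 kb spanned the Prf1 gene with 4 peaks, and the regions over Adamts14 and X99384 were 23.6 and 22.8 kb wide with 2 peaks each.

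Gzmm, in its window elsewhere on chromosome 10, had a compact arrangement. The gene body (chr10:79151765-79158006, plus strand) held 3 peaks, with midpoints 0.021, 2.02 and 3.06 kb from the outermost start, all inside 1 H3K4me1 region of 13.7 kb that also covered the neighbouring Cdc34. The other 3 peaks of the window lay at the starts of other genes. They were at Gm16517 (-19.9 kb from the Gzmm start), at Cdc34, which encodes a ubiquitin-conjugating enzyme (-7.43 kb), and at Bsg, which encodes the membrane protein basigin (15.4 kb). The peak at Gm16517 was the only one of the 39 without H3K4me1.

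On chromosome 13, Gzma (chr13:113884033-113891187, minus strand) had no peak within its body. The nearest 2 lay upstream with midpoints at -1.04 and -4.01 kb, both inside an H3K4me1 region of 6999 bp that reached over the start, and 2 more upstream peaks lay at -19.7 and -34.1 kb. On the 3′ side, 7 peaks overlapped Cdc20b, a neighbouring gene, all but 1 of them wholly in introns, between 10.2 and 54.2 kb from the outermost Gzma start. This included the widest peak of the set, 2079 bp. The peak farthest from Gzma had its midpoint 389 bp from the start of another gene, Gpx8. The 4 widest H3K4me1 regions over Cdc20b measured 11.9, 9.94, 10.9 and 13.6 kb, and the one of 11.9 kb also covered exons of Gpx8.

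Gzmk, on the same chromosome and strand, was annotated with a long and a short form. The long transcript spanned 54.3 kb and overlapped Esm1, which encodes an endothelial proteoglycan, while the short one, of 9.26 kb, started inside the gene. A peak of 815 bp covered the start of the short form with its midpoint 22 bp downstream of it, and another lay 1302 bp upstream of the long form's start. A further peak lay in an intron of the long form at -17.3 kb from the nearest inner start. The window counts were 4 peaks with either form, and 13 H3K4me1 regions with the long form or 10 with the short one. The fourth peak of the window, between the genes, was shared with Gzma, so that the 11 peaks of Gzma and 4 of Gzmk amount to 14.

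On chromosome 14 the peaks were gathered at the Gzmb end. Gzmb (chr14:56877693-56881097, minus strand) had a peak of 1328 bp over its start, with the midpoint at -0.08 kb, and 4 intergenic peaks upstream at -4.10, -22.3, -25.7 and -34.8 kb. The body of Gzmb with the 50 kb upstream of it measured 53.4 kb, and H3K4me1 covered 65.1% of it. The rest of the window, 191 kb on the 3′ side of Gzmb with the other 5 members, held 1 peak and was covered to 8.71%. That peak lay at the start of Mcpt8, a protease of basophils, and was the 1 counted for Gzmd and Gzme, at 46.9 and 34.9 kb from their starts. The 3 peaks counted for Gzmc were the nearest 3 of the Gzmb peaks. None of the counts of Gzmc to Gzmg therefore came from a peak between these genes.

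The stretch without a peak from the Mcpt8 peak to the Gzmb peak (chr14:56704522-56880513) was 176 kb long. Over the whole list the median gap between neighbouring peaks was 28.9 kb, and 15.9% of 15504 gaps were longer than this one. It held 7 protein-coding genes, Gzmc, Gzmd, Gzme, Gzmf, Gzmg, Gzmn and the cathepsin G gene Ctsg. The stretch was not empty of H3K4me1, which covered 9.43% of it in 8 regions, among them 1 of 1709 bp over the Gzmc start, 1 of 1582 bp at the 3′ end of Gzmf and 1 of 1990 bp between Gzmc and Gzmb. Measured from the gene bodies, the 50 kb limit left out the peak nearest to Gzmf, at 50.3 kb, and a Gzma-side peak of Gzmk, at 50.3 kb, while it took in the farthest peak counted for Gzmc, at 49.5 kb, and the 1 counted for Gzmd, at 43.9 kb. The stretch is free of listed peaks in resting cells only. For IL-2-activated NKC the study reports that Runx3 gained several sites across the Gzme-Gzmc locus.

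The sequence of this cluster also differed in how much of it can be read uniquely. Reads of 40 bases were aligned and, per the study's methods, kept when their alignment was unique, so that a read which matches several places is lost. Of all 40-base words starting in the chromosome 14 window, 75.1% occurred once in mm9, compared with 95.1% in the Prf1 window, 95.6% for Gzmm and 90.5% for Gzma-Gzmk, and with 86.3% of words sampled over 20 chromosomes. Within the cluster it was 89.9% for Gzmb and its upstream flank and 70.9% for the rest. Around the starts (1 kb on either side) it was 100% for Gzmb, 94.4% for Gzmc, 82.7% for Gzmg, 79.3% for Gzme, 73.1% for Gzmd and 60.2% for Gzmf. Gzmn, another granzyme gene of the stretch without peaks, had 100% and also no peak within 1 kb. The part of unique sequence in the absence of listed peaks near the starts of Gzmc to Gzmg was not tested.

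**Figure D5:**
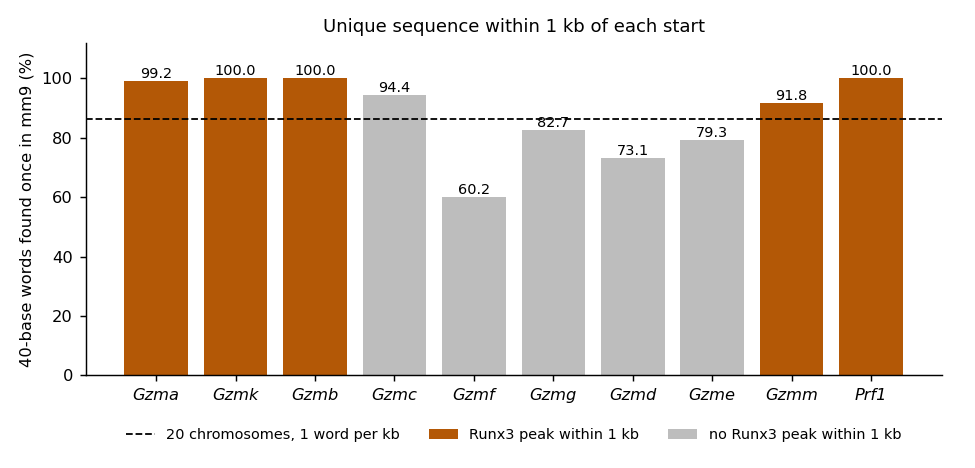
Share of 40-base words within 1 kb of each member's start that occur once in mm9 (y axis, %), in orange for members with a Runx3 peak within 1 kb of a start and in grey for those without; the dashed line is the share over 20 chromosomes (86.3%). The members with a peak had 91.8% or more, and those without had from 60.2% (Gzmf) to 94.4% (Gzmc). For Gzmk the start is the inner one that a peak covered. Peaks were called from unique alignments, so the colours are not independent of this share.

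Most of the peaks were away from the members' starts. Only 4 of the 39 had their midpoint within 1 kb of a member start, 28 lay more than 5 kb from any of them, 8 touched a member's body and 15 were intergenic. For 15 of the 39 the nearest protein-coding start was that of a member, 5 for Gzmb, 3 each for Gzma and Gzmm and 2 each for Gzmk and Prf1. At Prf1 the remaining peaks were nearest to Adamts14 or to Rpl27a-ps1, a ribosomal protein entry downstream of Prf1 whose symbol marks a pseudogene although the annotation types it as coding. Under the nearest-start rule Gzmc, Gzmd, Gzme, Gzmf and Gzmg had 0 peaks each. Position alone does not tell which gene a distant peak acts on.

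To show what peaks outside the member bodies contain, the central 200 bases of 3 of them are given, again with RUNX matches in capitals. They are the intergenic peak at -25.7 kb from Gzmb, the intergenic peak at -1.04 kb from Gzma and the peak in an intron of X99384, 44.0 kb downstream of the Prf1 start. The first is shown because it has 3 matches in its centre, the second because it is the peak nearest to Gzma, and the last as the peak farthest from Prf1. These centres, with 3, 2 and 4 matches, held more than is typical. Over the 39 peaks the median was 1 match in the central 200 bases, and 28 peaks (71.8%) had any. Over all listed peaks the share was 69.1%.
Gzmb peak at -25.7 kb, centre, chr14:56906710-56906909, minus strand: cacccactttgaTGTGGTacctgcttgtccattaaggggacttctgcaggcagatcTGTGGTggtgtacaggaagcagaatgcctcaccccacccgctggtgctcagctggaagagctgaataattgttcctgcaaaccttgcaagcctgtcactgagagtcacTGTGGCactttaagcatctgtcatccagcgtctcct
Gzma peak at -1.04 kb, centre, chr13:113892129-113892328, minus strand: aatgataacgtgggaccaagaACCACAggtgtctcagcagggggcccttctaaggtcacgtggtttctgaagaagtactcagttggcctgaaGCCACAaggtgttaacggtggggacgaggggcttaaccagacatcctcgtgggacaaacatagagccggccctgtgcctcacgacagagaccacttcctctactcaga
Prf1 peak at 44.0 kb, centre, chr10:60804444-60804643, plus strand: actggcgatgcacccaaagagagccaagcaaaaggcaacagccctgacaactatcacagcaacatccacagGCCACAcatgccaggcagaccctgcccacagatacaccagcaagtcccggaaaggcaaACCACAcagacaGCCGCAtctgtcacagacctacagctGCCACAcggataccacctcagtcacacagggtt

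Over their whole width, 37 of the 39 peaks (94.9%, exact 95% interval 82.7% to 99.4%) held a RUNX match, against 93.3% of all listed peaks. The 2 without one lay in the intergenic group upstream of Prf1, at -20.6 kb, and in an intron of Cdc20b, in the Gzma window. The spelling was uneven. TGTGGT was found in 34 of the 39 (87.2%, 72.6% to 95.7%) against 65.5% of all peaks, and TGTGGC in 28 (71.8%, 55.1% to 85.0%) against 54.1%. TGCGGT, in contrast, was found in 3 (7.69%, 1.62% to 20.9%) against 24.7%, and TGCGGC in 9 (23.1%) against 26.1%.

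The spelling also varied with distance from genes over the whole list, where TGCGGT was in 36.8% of peaks within 1 kb of a protein-coding start and in 17.5% of those farther away. Among peaks over 1 kb from any protein-coding start, TGTGGT was in 26 of 29 at these loci (89.7%, 72.6% to 97.8%) and in 78.0% of 9753 peaks in the list, so that the interval included the value of the list. TGCGGT was in 1 of the 29 (3.45%, 0.0873% to 17.8%), and this interval also included the value of the list. Among the 10 peaks within 1 kb of a start, 8 held TGTGGT (80.0%, 44.4% to 97.5%), compared with 44.4% of 5771 peaks of that class, a value at the lower bound of the interval.

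The other consensus words were found in fewer peaks. ETS (AGGAAGT) was in 11 of the 39 (28.2%, 15.0% to 44.9%) against 41.8% of all peaks, and STAT in 13 (33.3%, 19.1% to 50.2%) against 22.3%. T-box (GGTGTGA) was in 9 (23.1%, 11.1% to 39.3%) against 16.7%, with 5 of these at Gzma-Gzmk, 3 at Prf1, 1 at Gzmm and 0 at the chromosome 14 cluster. AP-1 was in 6 (15.4%, 5.86% to 30.5%) against 16.5%. All 4 intervals included the share of the list, so no difference was detectable with 39 peaks. The ETS search also took CGGAAGT, the STAT letters were TTCNNNGAA, the AP-1 letters TGACTCA or TGAGTCA, and both strands were read.

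Neighbours and partners of the members gave further values. Of 10 other genes of the chromosome 14 protease cluster, 9 were found in the annotation. Of these, 6 had a Runx3 peak within 50 kb and 8 an H3K4me1 region, and 2, Cma1, a mast cell chymase, and Mcpt8, had a Runx3 peak within 1 kb of a start. Over all protein-coding genes the shares were 62.6%, 79.7% and 28.2%, so these counts were near the background. They are not independent, because the windows overlap. The 1 peak counted for each of Ctsg, Mcpt2, Mcpt4 and Mcpt8 was the same peak at Mcpt8, also the one counted for Gzmd and Gzme. The neutrophil protease genes Elane and Prtn3, and the protease gene Cfd beside them, lie on the chromosome of Gzmm and Prf1. Elane, Prtn3 and Cfd had 7, 6 and 7 Runx3 peaks within 50 kb, and 0 of the 3 had one within 1 kb of a start. Their windows overlap, so these counts are not independent. Of 6 genes for proteins that process, store or block granzymes, all had both kinds of region within 50 kb and H3K4me1 within 1 kb of a start. The last was the case for 59.6% of all protein-coding genes. Serpinb9, Serpinb9b and Serpinb6b lie close together on chromosome 13 with overlapping windows, so their counts are not independent either. In this set Ctsc, the protease that activates granzymes, Srgn, the granule proteoglycan serglycin, the granzyme B inhibitor gene Serpinb9 and Serpinb6b had a Runx3 peak within 1 kb of a start. Ctsh, another activating protease, had its nearest peak edge at 42.1 kb, and Serpinb9b at 22.4 kb.

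The cell type labels were checked on marker genes fixed for the purpose. Of 5 NK markers (Ncr1, Klrb1c, Itga2, Eomes and Tbx21), 4 had a Runx3 peak within 1 kb of a start and 5 had H3K4me1 there. Of 3 T cell markers 0 had a Runx3 peak and 2 had H3K4me1 (Cd3e and Cd3g), and of 3 B cell markers 0 had either. Of 3 myeloid markers 1 had both, Itgam, which NKC express too. Over all protein-coding genes the shares within 1 kb of a start were 28.2% for Runx3 and 59.6% for H3K4me1. With 3 genes in each of the T cell, B cell and myeloid sets, their counts cannot be told apart from these shares. The NK counts rest on only 5 genes. The study itself shows Ncr1 and the Klrb1 locus as Runx3-bound in resting NKC, so the NK set is not an independent check. A list of regions gives no share of cells of each type, and the part of other cells in the values was not tested.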

How the data were processed

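Chromatin of resting splenic NKC was immunoprecipitated with anti-Runx3, anti-H3K4me1 or NIS. Reads were aligned to mm9 with ELAND, and the submitters' processing notes name CASAVA 1.7. Per the methods, unique alignments were kept and regions were called with MACS against NIS on reads joined over repeats, although the labels hold 1 sample per group. The Runx3 list holds as many regions as the study reports for resting NKC. The authors deposited 2 lists of positions, and the further columns of the Runx3 list were empty, so no score or height was available. No file of the NIS sample was used here.

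From the lists, each region that overlapped a window by at least 1 base was counted. Genes, transcripts and start sites came from GENCODE M1 on the mm9 sequence (NCBIM37). Windows were the gene body with 50 kb on either side, and start sites were taken with 1 kb on either side. Motif letters were matched on both strands of the mm9 sequence over the whole peak and over its central 200 bases. Identity was computed from pairwise alignments (Biopython 1.88). Unique words were 40-base words with 1 exact occurrence on either strand, without mismatches, so this only approximates the aligner. Intervals are exact binomial at 95% and treat peaks as independent. Scripts used Python 3.11.15, numpy 2.4.6, scipy 1.17.1, numba 0.67.0, samtools 1.23.1 and matplotlib 3.10.9, and were tested on simulated data. All members, all genes of the lists and each gene on which a peak of the loci fell were eligible to be named. The members and lists were chosen with earlier results of these data known. Alternatives changed the window, the region width, merging, the rule that assigns peaks to genes, the overlap rule, the part of the peak searched and the gene set.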

Additional observations from a re-analysis of the deposited data

How the results depend on the processing

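Of 62 alternatives over 20 values, 37 left counts and coverages within 1.5 times the reported value, or shares of peaks or genes within their interval. With windows of 10 kb, peaks fell to 4 at Prf1 (5 at Gzmm), 7 at Gzma-Gzmk and 2 at the chromosome 14 cluster, H3K4me1 regions to 3 at Prf1, 3 at Gzmm, 10 at Gzma-Gzmk and 5 at the cluster, and coverage changed to 65.3% at Gzmm and 12.3% at the cluster. In these windows 5 members had a peak and 100% of peaks lay on H3K4me1. With windows of 100 kb, regions rose to 17 at Prf1 and 14 at Gzmm, and all 10 members had a peak. Keeping regions wider than the median of their list left 9 peaks at Gzma-Gzmk, 3 at the cluster, and 5, 4 and 13 regions at Prf1, Gzmm and Gzma-Gzmk. Assigning peaks by basal domain plus extension or by nearest start left 5 members with a peak in each case. In the central 200 bases, matches remained in 4 peaks for ETS, 2 for T-box, 2 for STAT and 1 for AP-1 (10.3%, 5.13%, 5.13% and 2.56%), while over all peaks the shares fell too, to 20.1%, 6.35%, 5.51% and 5.50%. Over all annotated genes, 53.5% had a Runx3 peak within 50 kb. The short Gzmk form, an alternative chosen after seeing the data, gave 14 peaks, 17 regions and 47.2% coverage on chromosome 13. Smaller windows, fewer regions and shorter sequences lower counts by construction.

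No paired analysis was possible because each group has 1 sample in the labels and no list per repeat. For the same reason leaving out a replicate was not done. With no heights or read numbers, a weak peak and a strong one count alike, and a region just under the caller's threshold looks empty.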
